A study of Homo sapiens with 12 samples.

Results

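The 50 genes described here encode the machinery that licenses replication origins and copies DNA at the fork. They were taken by name from the 25914 genes listed in both RNA-seq comparisons, where each name matched 1 gene, and were grouped into 11 complexes or functions. The groups were the origin recognition complex, licensing factors, the MCM2-7 helicase, helicase activation, the polymerases alpha, epsilon and delta, the clamp loader, the clamp with lagging strand enzymes, RPA and fork protection. The names were chosen for function, with earlier results of these data known.

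Cells of 2 lines labelled wild-type, RPE-1 hTERT and HCT116, received 10 µM Nutlin-3a or only the solvent DMSO for 24 h, with 3 libraries per line and treatment and 12 in all. RPE-1 hTERT is a telomerase-immortalized line from retinal pigment epithelium, and HCT116 is a colon cancer line. Nutlin-3a occupies the p53-binding pocket of MDM2, so that p53 is no longer degraded. Each line stands for itself, since 1 line was used per tissue, 1 dose and 1 time point.

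Origin licensing loads the MCM2-7 ring onto DNA that the origin recognition complex has marked, with the help of CDC6 and CDT1. At the start of S phase the ring gains CDC45 and the GINS proteins and unwinds DNA, and the polymerases, the clamp PCNA and its loader RFC follow. E2F transcription factors bind the promoters of many of these genes, and cells with active p53 are known to stop at the G1/S border and to lower E2F target RNAs.

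Each value below is a log2 fold change (log2FC) of Nutlin-3a over DMSO within a line, with its standard error (SE), as the authors' deposited tables give it. A gene was called at a Benjamini-Hochberg adjusted p under 0.05 over all listed genes. Values per library were not part of the tables, so that no spread between single libraries could be shown and the reads behind each library are unknown. Identity markers of the lines were not checked, because a log2FC gives no level. In cultures, less RNA per cell and fewer cells in S phase cannot be told apart.

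The p53 targets MDM2 and CDKN1A rose in both lines. MDM2, the ligase that degrades p53, had a log2FC of 3.95 ± 0.11 (SE) in RPE-1 and 4.14 ± 0.11 in HCT116. CDKN1A, which encodes the cyclin-dependent kinase inhibitor p21, had 3.94 ± 0.22 and 4.12 ± 0.22.

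Replication genes fell in both lines. In RPE-1, 47 of the 50 were called lower, against 13.6% of all listed genes, and 1 was called higher, against 19.3%. In HCT116, 44 were called lower, against 12.2%, and 2 were called higher, against 14.9%. The median log2FC of the 50 genes was −2.80 in RPE-1 and −2.31 in HCT116, which corresponds to RNA 6.98 and 4.96 times lower, whereas the median of all listed genes was 0.06 and 0.09. A called log2FC of −2 or lower was found for 32 of the 50 genes in RPE-1, against 2.28% of all listed genes, and for 28 in HCT116, against 1.94%. In both lines, 43 genes were called lower and 27 reached −2. The share of all listed genes that did so in both lines was not computed. It cannot exceed the 12.2% and 1.94% of HCT116. The members not called lower in at least 1 line were ORC2, ORC4, ORC5, POLE4, POLD2, POLD4 and PCNA.

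**Figure D1:**
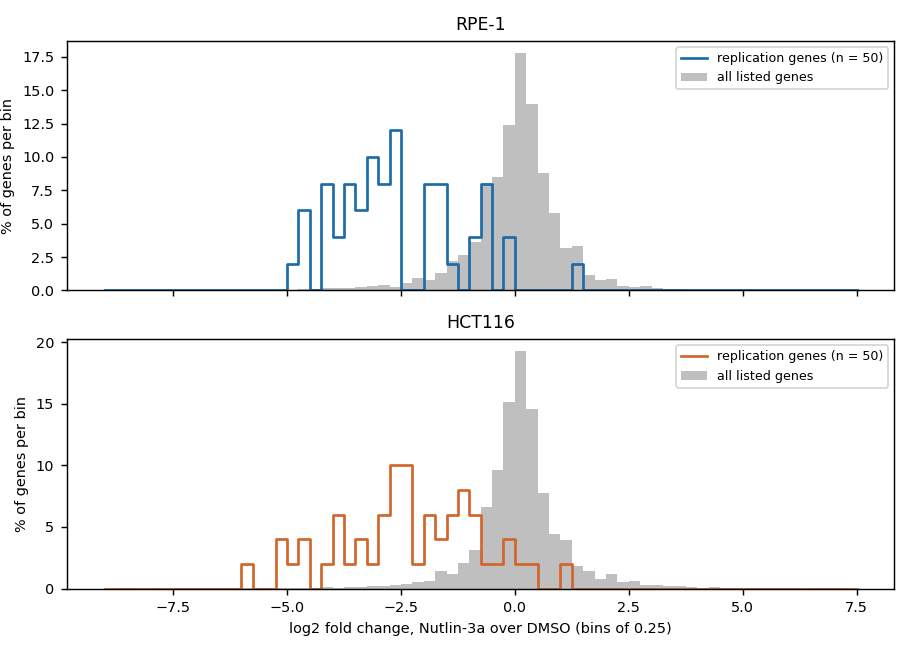
Distribution of log2FC (x axis, bins of 0.25) as percent of genes per bin (y axis), in RPE-1 (top) and HCT116 (bottom). Grey bars show all 25914 listed genes and the coloured line the 50 replication genes, whose medians lie at −2.80 and −2.31 while those of all genes lie at 0.06 and 0.09.

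The lowest values came from different steps of replication. In RPE-1 these were CLSPN at −4.84 (95% interval −5.30 to −4.38), CDC6 at −4.75 (−5.07 to −4.43), ORC1 at −4.73 (−5.22 to −4.25) and MCM10 at −4.59 (−4.91 to −4.27). The intervals of these 4 genes overlapped, so that their order is not resolved. In HCT116 the lowest were GINS2 at −5.91 (−6.35 to −5.47), MCM10 at −5.17 (−5.50 to −4.84) and CDC45 at −5.05 (−5.57 to −4.54), again with overlapping intervals between neighbours. At the other end of the order, POLD4 was highest in both lines.

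The strength of the change followed a like order across the 50 genes in both lines, with Pearson's r of 0.875 and Spearman's rho of 0.885, given as a description because genes of 1 pathway are not independent. The lines do not share DMSO libraries. By complex, the median log2FC in RPE-1 was −3.50 for helicase activation, −3.28 for MCM2-7, −3.24 for licensing factors, −2.96 for fork protection, −2.84 for the clamp loader, −2.67 for polymerase alpha-primase and −2.21 for polymerase epsilon. It was −1.71 for the clamp with lagging strand enzymes, −1.56 for RPA, −1.21 for polymerase delta and −0.81 for the origin recognition complex. In HCT116 the same 4 groups had the medians nearest to 0, at −1.47, −1.15, −0.90 and −0.69, and licensing factors had the lowest at −3.93. Complexes were not tested against each other.

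**Figure D2:**
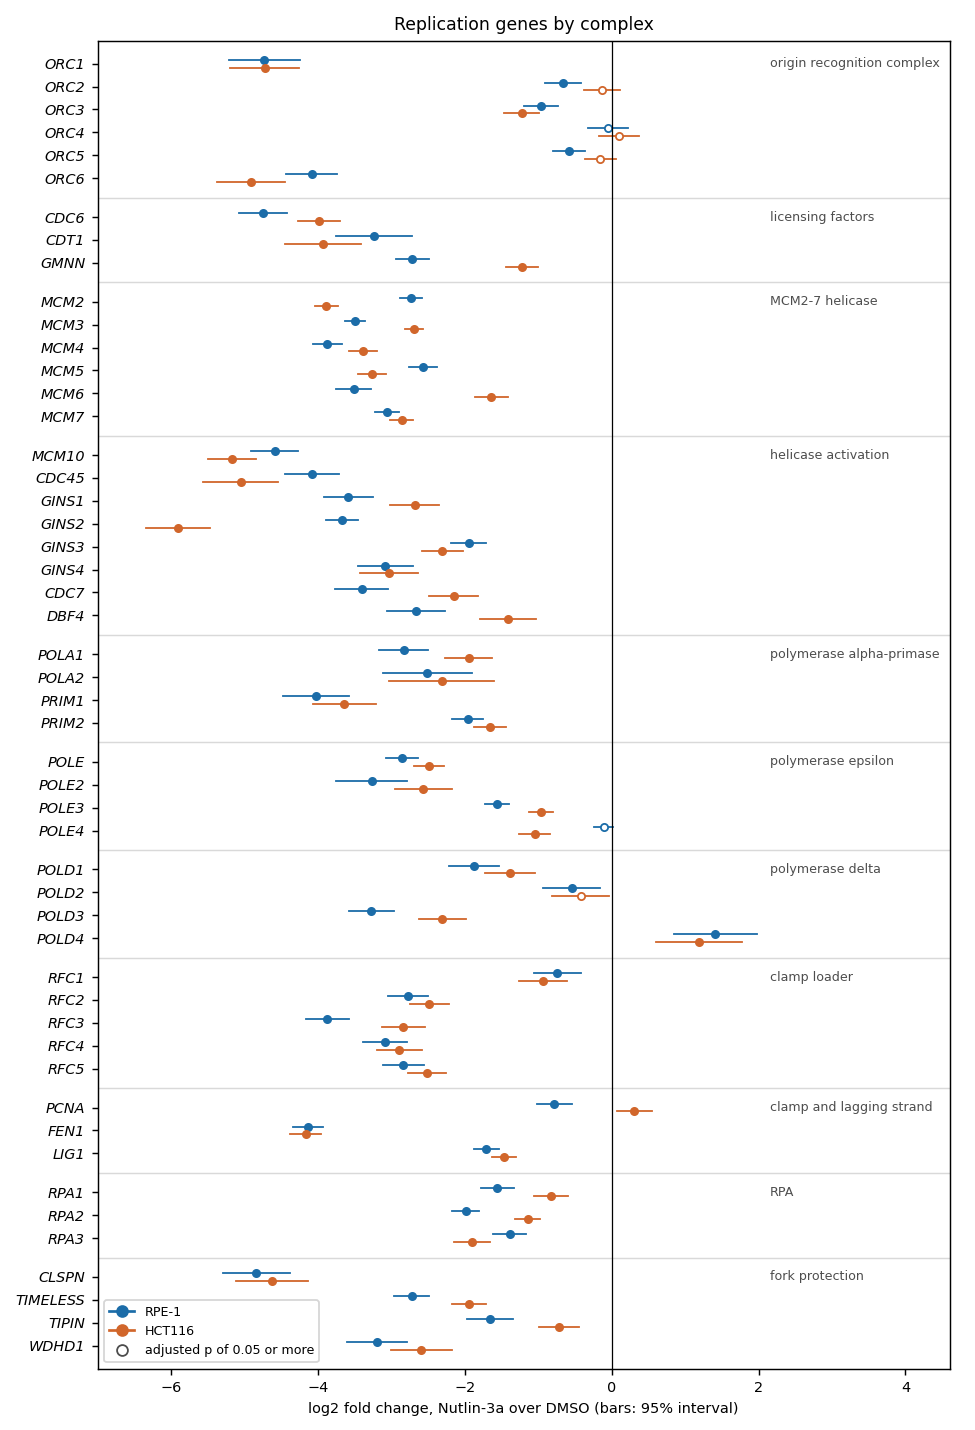
The log2FC of Nutlin-3a over DMSO (x axis) for each of the 50 genes (y axis), grouped by complex, in RPE-1 (blue) and HCT116 (orange). Points are the deposited estimates from 3 against 3 libraries, bars are 95% intervals and open points have an adjusted p of 0.05 or more. All points of MCM2-7 lie at −1.64 or lower, whereas the origin recognition complex ranges from −4.73 to −0.05 in RPE-1 and from −4.91 to 0.10 in HCT116.

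Promoter sequence was set beside these changes. RefSeq promoter windows (GRCh38.p14) of 300 bases, 250 before to 50 after the gene start, were found for 44 of the 50 genes. Of these, 6 are shown because their genes mark the ends of the response. CLSPN and CDC6 had the lowest values in RPE-1, GINS2 and MCM6 differed most between the lines, PCNA had opposite calls and POLD4 was called higher in both lines. The calls of PCNA and POLD4 in HCT116 did not hold under every setting, as given below. They were chosen after their values were seen. Each is printed 5′ to 3′ on the strand of the gene from 250 bases before the start, 270 bases in all, of which the last 20 run from the start. CLSPN (ENSG00000092853) was read from chr1:35769959-35770228 on the minus strand, CDC6 (ENSG00000094804) from chr17:40287629-40287898 on the plus strand and GINS2 (ENSG00000131153) from chr16:85688935-85689204 on the minus strand. MCM6 (ENSG00000076003) was read from chr2:135876424-135876693, PCNA (ENSG00000132646) from chr20:5126603-5126872 and POLD4 (ENSG00000175482) from chr11:67353577-67353846, each on the minus strand. Capitals mark every match, on either strand, to an E2F site, a cell cycle genes homology region (CHR), a CCAAT box or a p53 half-site.
CLSPN: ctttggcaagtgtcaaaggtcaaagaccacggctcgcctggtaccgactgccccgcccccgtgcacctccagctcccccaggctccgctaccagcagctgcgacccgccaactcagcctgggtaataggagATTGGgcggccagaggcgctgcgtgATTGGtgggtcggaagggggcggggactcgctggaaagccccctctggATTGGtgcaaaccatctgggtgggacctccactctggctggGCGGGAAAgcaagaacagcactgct
CDC6: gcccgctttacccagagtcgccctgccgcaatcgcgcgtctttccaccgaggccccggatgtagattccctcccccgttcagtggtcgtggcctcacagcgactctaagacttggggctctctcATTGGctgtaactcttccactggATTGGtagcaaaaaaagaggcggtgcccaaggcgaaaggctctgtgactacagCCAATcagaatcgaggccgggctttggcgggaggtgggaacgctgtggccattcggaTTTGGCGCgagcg
GINS2: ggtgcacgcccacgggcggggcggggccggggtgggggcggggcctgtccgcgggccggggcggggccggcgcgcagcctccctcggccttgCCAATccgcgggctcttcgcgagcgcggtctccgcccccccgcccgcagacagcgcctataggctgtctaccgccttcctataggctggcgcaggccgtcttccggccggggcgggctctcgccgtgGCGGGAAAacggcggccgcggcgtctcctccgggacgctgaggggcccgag
MCM6: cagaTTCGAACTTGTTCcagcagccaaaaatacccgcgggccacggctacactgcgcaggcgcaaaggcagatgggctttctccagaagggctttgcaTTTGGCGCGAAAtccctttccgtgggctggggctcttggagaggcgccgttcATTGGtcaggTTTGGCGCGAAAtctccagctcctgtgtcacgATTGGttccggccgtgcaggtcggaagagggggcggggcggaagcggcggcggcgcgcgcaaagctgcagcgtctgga
PCNA: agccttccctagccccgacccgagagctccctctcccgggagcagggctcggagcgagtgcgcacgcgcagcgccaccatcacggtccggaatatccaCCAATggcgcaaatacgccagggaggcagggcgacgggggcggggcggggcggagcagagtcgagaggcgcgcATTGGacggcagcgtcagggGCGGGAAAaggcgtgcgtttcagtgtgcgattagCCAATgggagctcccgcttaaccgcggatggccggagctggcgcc
POLD4: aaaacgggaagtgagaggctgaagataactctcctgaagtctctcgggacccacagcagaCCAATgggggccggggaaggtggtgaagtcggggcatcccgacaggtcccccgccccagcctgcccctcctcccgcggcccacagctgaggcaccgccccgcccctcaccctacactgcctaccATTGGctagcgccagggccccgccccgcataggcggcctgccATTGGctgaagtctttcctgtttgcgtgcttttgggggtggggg

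The E2F site was searched as TTTCCCGC, TTTCGCGC, TTTGCCGC or TTTGGCGC, the CHR as TTTGAA or TTCGAA, the CCAAT box as CCAAT and the p53 half-site by its degenerate consensus, all on both strands. An E2F site was present in 19 of 44 windows (43.18%), against 3.336% of the windows of 27305 genes. CCAAT boxes were found in 24 of 44 (54.55%), against 35.71%, p53 half-sites in 4 of 44 (9.091%), against 6.53%, and CHR matches in 2 of 44 (4.545%), against 16.68%. The windows of the replication genes were also richer in G and C, with a median of 65.67% against 58.33%, and the part of base composition in these shares was not tested. Of 25 E2F matches, 19 had their centre within 100 bases of the start. Overlapping matches were counted separately, and the same share over the windows of all genes was not computed.

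In the sequences above, the E2F match of CLSPN spans the start itself, from position −5 to 2, that of CDC6 lies 7 to 14 bases after it, and those of GINS2 and PCNA lie at −31 to −24 and −59 to −52. MCM6 holds 4 E2F matches in 2 overlapping pairs, at −152 to −141 and −90 to −79, and a CHR overlapping a p53 half-site at −246 to −234. POLD4 holds 3 CCAAT boxes and no match to the other 3 motifs. The E2F letters occurred in genes with strong and with weak responses. Among the 23 genes with a window and a log2FC of −2 or lower in both lines, 12 had the match, against 7 of the other 21. Those 21 include genes that passed −2 in RPE-1 alone, such as MCM6 and POLA1. Of the 37 genes called lower in both lines, 17 had the match, against 2 of the 7 not called so. These shares were not tested against each other. No match was found for FEN1, ORC1, ORC6, MCM10 or CDC45, all of which fell by more than 4 on the log2 scale in both lines, while PCNA and POLE4 had 1. CDC45 has 3 windows and PCNA has 2, and only the window with the outermost start was used for each. A match is a run of letters in this window and not a shown binding site.

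**Figure D3:**
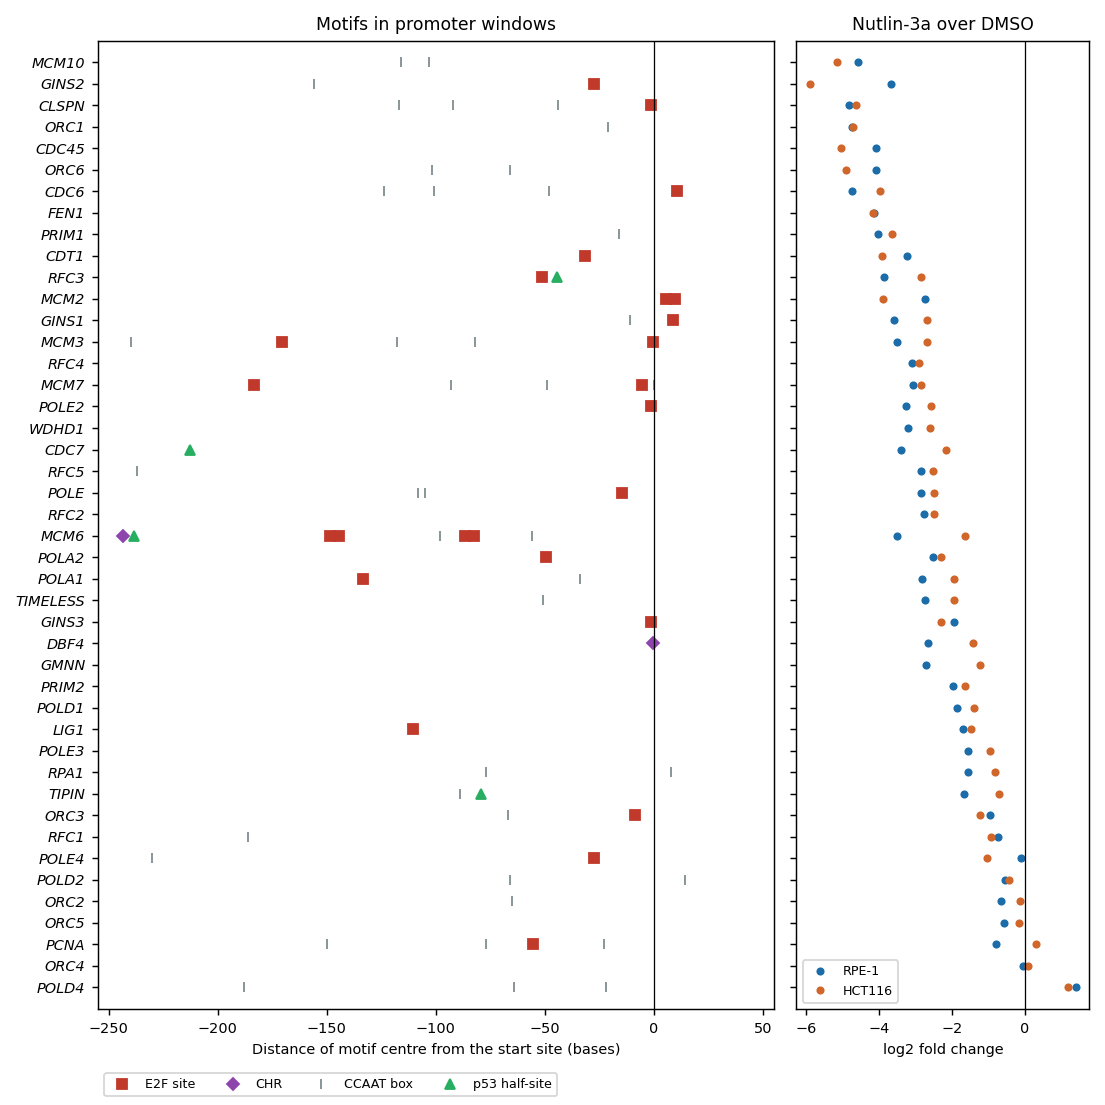
Motif matches in the promoter windows of 44 genes (left, x axis: distance of the motif centre from the start site in bases) beside the log2FC of Nutlin-3a over DMSO (right, RPE-1 blue, HCT116 orange), with genes ordered by the mean log2FC of both lines. E2F matches (squares) occur in 12 of the 23 genes at −2 or lower in both lines and in 7 of the other 21.

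Within the origin recognition complex, 2 of 6 subunits had far lower values than the other 4. ORC1, the largest subunit, had a log2FC of −4.73 ± 0.25 in RPE-1 and −4.73 ± 0.24 in HCT116, which leaves 3.76% and 3.77% of the DMSO level. ORC6, a loosely bound subunit, had −4.08 ± 0.18 and −4.91 ± 0.24. The core subunit ORC3 fell less, to −0.96 ± 0.12 in RPE-1 and −1.23 ± 0.12 in HCT116. ORC2 and ORC5, also core subunits, fell in RPE-1, to −0.66 ± 0.13 and −0.58 ± 0.11. They were not called in HCT116, at −0.13 (interval −0.38 to 0.12, adjusted p = 0.518) and −0.15 (−0.37 to 0.06, adjusted p = 0.332), and the difference between the lines passed the test for both (−0.53 ± 0.18, adjusted p = 0.018, and −0.43 ± 0.16, adjusted p = 0.0311). Both differences were lost at an adjusted p of 0.01 and with standard errors multiplied by 1.5 (adjusted p = 0.288 and 0.349). ORC4, an ATPase subunit, was called in neither line, at −0.05 (−0.33 to 0.22) and 0.10 (−0.18 to 0.37).

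All 3 licensing factors fell in both lines. CDC6, the ATPase that loads MCM2-7 together with ORC, had −4.75 ± 0.16 in RPE-1 and −3.99 ± 0.15 in HCT116, or 3.72% and 6.31% of the DMSO level. CDT1, which brings the MCM ring to the origin, had −3.24 ± 0.26 and −3.93 ± 0.26. GMNN encodes geminin, the inhibitor of CDT1, and it showed the second largest difference between the lines among genes that were lower in RPE-1. It was 6.58 times lower in RPE-1 (−2.72 ± 0.12) and 2.34 times lower in HCT116 (−1.22 ± 0.11), a difference of −1.49 ± 0.16 with an adjusted p of 3.53e-18. Geminin and its target CDT1 were not tested against each other.

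All 6 subunits of the MCM2-7 helicase fell in both lines, but not to the same extent. In RPE-1 the log2FC ranged from −3.88 ± 0.10 for MCM4 to −2.57 ± 0.09 for MCM5. In HCT116 it ranged from −3.89 ± 0.08 for MCM2 to −1.64 ± 0.11 for MCM6. The spread of the subunits was therefore 1.31 in RPE-1 and 2.25 in HCT116, although the ring holds 1 copy of each. MCM6 was left at 8.74% of the DMSO level in RPE-1 and at 32.0% in HCT116, a difference of −1.87 ± 0.17 with an adjusted p of 4.88e-27. MCM2 differed the other way, with 15.1% of the DMSO level in RPE-1 and 6.74% in HCT116 (difference 1.16 ± 0.11, adjusted p = 1.89e-23). MCM3 and MCM4 were lower in RPE-1 by the same test and MCM5 in HCT116. MCM7 had −3.06 ± 0.08 and −2.86 ± 0.08, with an interval of the difference from −0.42 to 0.03.

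The 8 genes of helicase activation fell in both lines. MCM10, which helps to activate the helicase, was left at 4.15% of the DMSO level in RPE-1 and 2.77% in HCT116, and its difference of 0.58 ± 0.23 did not pass the test (adjusted p = 0.0578). CDC45, a cofactor of the active helicase, had −4.08 ± 0.19 and −5.05 ± 0.26. The 4 subunits of the GINS complex did not move alike. GINS2 had the largest difference between the lines of all 50 genes, with −3.68 ± 0.11 in RPE-1 and −5.91 ± 0.22 in HCT116, or 7.81% and 1.67% of the DMSO level (difference 2.23 ± 0.25, adjusted p = 5.51e-17). GINS1 differed in the opposite direction, at −3.59 ± 0.17 and −2.69 ± 0.17. GINS3 had −1.95 ± 0.12 and −2.31 ± 0.14, and GINS4 had −3.08 ± 0.19 and −3.03 ± 0.20, with intervals of the difference from −0.01 to 0.72 and from −0.59 to 0.49.

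CDC7 and DBF4, the kinase and its activating subunit that phosphorylate the MCM ring, were both lower in RPE-1 than in HCT116. The log2FC of CDC7 was −3.40 ± 0.18 and −2.15 ± 0.17, and that of DBF4 was −2.67 ± 0.20 and −1.41 ± 0.19. Their differences were close to each other, at −1.25 ± 0.25 (adjusted p = 1.02e-05) and −1.26 ± 0.28 (adjusted p = 9.35e-05). DBF4 has a processed pseudogene, DBF4P1, that was listed at −2.53 ± 0.25 and −1.55 ± 0.23, and whether reads were shared between them was not tested.

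Polymerase alpha-primase, which lays down the RNA-DNA primers, fell as a whole. The catalytic primase subunit PRIM1 was lowest with −4.03 ± 0.23 in RPE-1 and −3.64 ± 0.22 in HCT116, whereas its partner PRIM2 had −1.96 ± 0.11 and −1.65 ± 0.11. The catalytic polymerase subunit POLA1 had −2.83 ± 0.17 and −1.95 ± 0.16, and it was the only 1 of the 4 whose change differed between the lines (adjusted p = 0.00161). The B subunit POLA2 had −2.51 ± 0.31 and −2.31 ± 0.37, the widest errors among the 50 genes, and 16.8% of its exon bases lie in exons of another gene on the same strand. For PRIM1, 15.1% of exon bases lie in exons of other genes on the same strand.

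In the leading strand polymerase epsilon, the catalytic subunit POLE (−2.85 ± 0.11 in RPE-1 and −2.49 ± 0.10 in HCT116) and the B subunit POLE2 (−3.27 ± 0.25 and −2.56 ± 0.20) fell more than the histone-fold subunits by value. POLE3 had −1.56 ± 0.08 and −0.97 ± 0.08. POLE4, its dimer partner, was not called in RPE-1 at −0.11 (−0.24 to 0.02, adjusted p = 0.212) and fell to −1.05 ± 0.11 in HCT116. The partners thus differed between the lines in opposite directions, by −0.59 ± 0.12 for POLE3 and 0.94 ± 0.13 for POLE4, with adjusted p of 7.95e-06 and 9.74e-12. The call of POLE4 in RPE-1 depended on the zero point, because it was called lower (adjusted p = 0.039) once the median of all genes was subtracted.

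Polymerase delta, which extends the lagging strand, held the member that rose. The accessory subunit POLD3 fell most with −3.27 ± 0.16 and −2.31 ± 0.16, followed by the catalytic subunit POLD1 with −1.87 ± 0.18 and −1.38 ± 0.18. The B subunit POLD2 had −0.55 ± 0.20 in RPE-1 (adjusted p = 0.019) and −0.42 ± 0.20 in HCT116 (adjusted p = 0.101). Its call in RPE-1 was lost at an adjusted p of 0.01 and with the wider standard errors (adjusted p = 0.224). POLD4, the smallest subunit, rose 2.66 times in RPE-1 (1.41 ± 0.29, adjusted p = 6.64e-06) and 2.28 times in HCT116 (1.19 ± 0.30, adjusted p = 0.000544). The call of POLD4 in HCT116 was lost with standard errors multiplied by 1.5 (adjusted p = 0.0585), and 21.3% of its exon bases lie in exons of another gene on the same strand.

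The clamp loader divides into the large subunit RFC1 and 4 small subunits. RFC1 had −0.74 ± 0.16 in RPE-1 and −0.94 ± 0.16 in HCT116. The small subunits RFC2 to RFC5 fell more in value and ranged from −3.87 ± 0.15 (RFC3) to −2.77 ± 0.14 (RFC2) in RPE-1 and from −2.90 ± 0.16 (RFC4) to −2.49 ± 0.14 (RFC2) in HCT116. Of the 5, only RFC3 differed between the lines by the test, at −1.03 ± 0.21 with an adjusted p of 1.63e-05. The intervals of the other 4 differences lay between −0.71 and 0.65.

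PCNA, the sliding clamp that RFC loads, was the member with opposite calls. It fell in RPE-1 to −0.78 ± 0.12, or 58.1% of the DMSO level (adjusted p = 1.73e-09), and was higher in HCT116 at 0.31 ± 0.12, or 124% (adjusted p = 0.0424). The difference of −1.09 ± 0.17 passed the test (adjusted p = 8.89e-09). The call in HCT116 was lost at an adjusted p of 0.01, after the median of all genes was subtracted (adjusted p = 0.188) and with wider standard errors (adjusted p = 0.346). Its processed pseudogene PCNAP3 was listed at −1.20 ± 0.31 and 0.04 ± 0.30. By contrast, FEN1, the nuclease that trims flaps of Okazaki fragments, fell alike in value, to −4.14 ± 0.10 and −4.17 ± 0.11 (interval of the difference −0.25 to 0.32). The ligase LIG1, which seals the fragments, had −1.71 ± 0.09 and −1.47 ± 0.09.

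RPA, the complex that coats single-stranded DNA, fell in all 3 subunits and none reached −2. The largest subunit RPA1 had −1.56 ± 0.12 in RPE-1 and −0.83 ± 0.12 in HCT116, and RPA2 had −1.99 ± 0.09 and −1.15 ± 0.09. Both fell more in RPE-1 (adjusted p = 0.000115 and 1.1e-09). The smallest subunit RPA3 fell more in HCT116, at −1.39 ± 0.12 against −1.90 ± 0.13, with a difference of 0.51 ± 0.17 and an adjusted p of 0.0164 that did not pass at 0.01. RPA2 and RPA3 each have 2 processed pseudogenes among the listed genes.

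Among fork protection genes, CLSPN, which encodes the checkpoint adaptor claspin, was left at 3.49% of the DMSO level in RPE-1 (−4.84 ± 0.23) and 4.03% in HCT116 (−4.63 ± 0.25). TIMELESS and TIPIN, which form a complex at the fork, had −2.73 ± 0.12 and −1.66 ± 0.16 in RPE-1 and −1.95 ± 0.12 and −0.71 ± 0.14 in HCT116. Both partners fell more in RPE-1, by −0.78 ± 0.17 (adjusted p = 6.75e-05) and −0.94 ± 0.21 (adjusted p = 0.000131). In TIPIN, 21.1% of exon bases lie in a processed pseudogene on the same strand, RPL9P25. WDHD1, which links the helicase to polymerase alpha, had −3.20 ± 0.21 and −2.59 ± 0.21 and an interval of the difference from −1.19 to −0.03 that did not pass after adjustment (adjusted p = 0.138).

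The response of the lines was compared by dividing the difference of the log2FC, RPE-1 minus HCT116, by its standard error, with adjustment over the 20764 genes at a base mean of at least 10. The difference passed for 26 of the 50 genes. It was lower in RPE-1 for 19, against 10.4% of the genes tested, and higher in RPE-1 for 7, against 11.3%. The 50 genes had smaller standard errors, with a median of 0.14 in each line against 0.27 and 0.26 for all listed genes. At an equal difference, smaller errors pass more readily, and their part in these counts was not tested. Of the 26 genes, 22 were called lower in both lines, so that most differences were of degree, and 8 differed by at least 1. The share of all genes with a difference that large was not computed. Among all 50, 36 differences were below 0 and 14 above, with a median of −0.32, whereas the median over the genes tested was 0. With standard errors multiplied by 1.5, the differences of ORC2, ORC5, ORC6, CDC6, MCM4, CDC45, GINS1, POLA1, POLD3 and RPA3 no longer passed (adjusted p from 0.0599 to 0.349). Calls in both directions within 1 complex remained under that setting in MCM2-7 and polymerase epsilon, whereas those in GINS, RPA and the origin recognition complex did not. In the wider group of helicase activation they remained, with GINS2 higher and CDC7 and DBF4 lower in RPE-1.

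**Figure D4:**
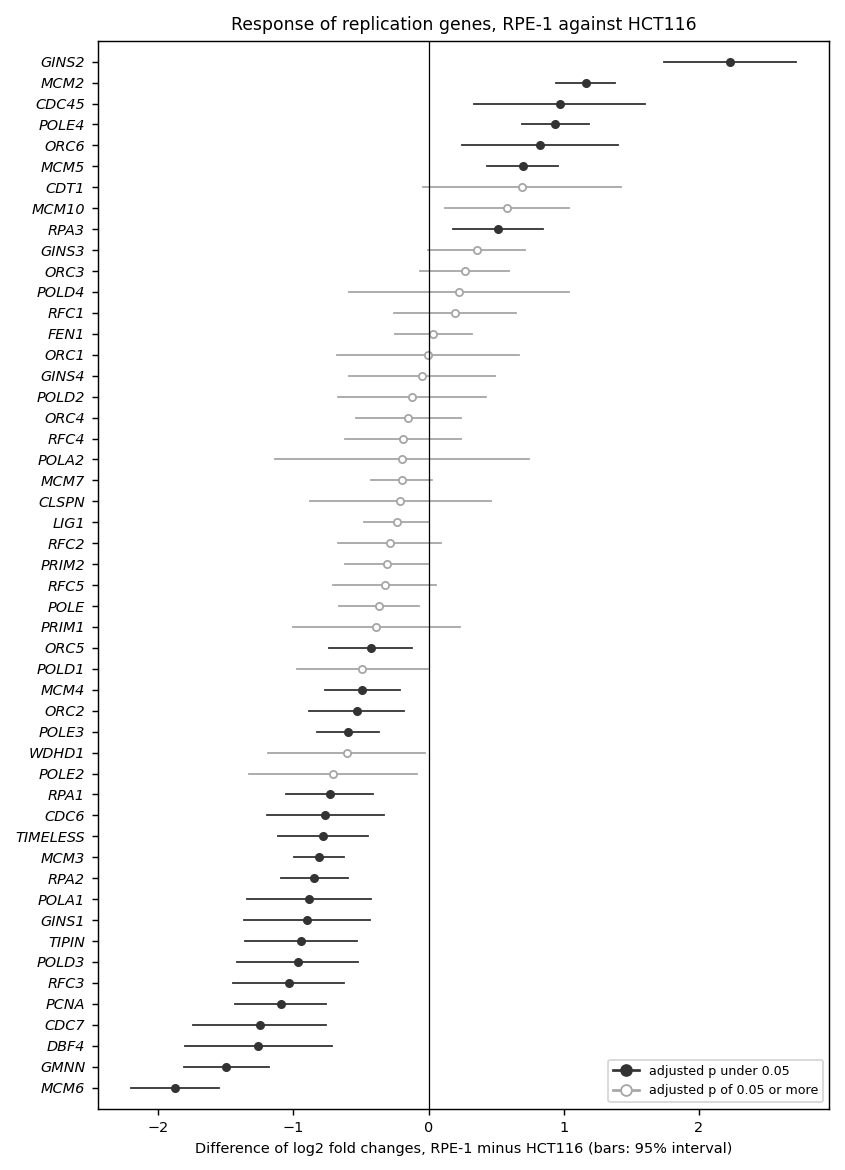
Difference between the lines in log2FC (x axis, RPE-1 minus HCT116) for each of the 50 genes, ordered by size. Points are differences of the deposited estimates, bars are 95% intervals, and filled dark points have an adjusted p under 0.05. MCM6 lies lowest at −1.87 and GINS2 highest at 2.23.

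Other replication factors also fell. Of a list of 26, chosen for function with earlier results known, 23 were called lower in each line, against 13.6% of all listed genes in RPE-1 and 12.2% in HCT116, and all 26 had a log2FC below 0 in both, with medians of −2.58 in RPE-1 and −1.96 in HCT116. The 3 lowest in RPE-1 were DTL, which directs the degradation of CDT1, at −4.77 ± 0.15, the histone chaperone ASF1B at −4.52 ± 0.17 and the RNase H2 subunit RNASEH2A at −4.18 ± 0.82. RNASEH2A had a base mean of 9.46, and 53.3% of its exon bases lie in exons of another gene. In HCT116 the lowest were ASF1B at −6.09 ± 0.21, DTL at −4.99 ± 0.17 and the cohesion factor DSCC1 at −4.78 ± 0.21. Nearest to 0 among those called were MCM9 (−0.38 ± 0.11), RNASEH2C (−0.63 ± 0.10) and RNASEH2B (−0.87 ± 0.10) in RPE-1, and ASF1A (−0.35 ± 0.11), RNASEH2B (−0.86 ± 0.11) and RNASEH2C (49.9% of the DMSO level) in HCT116. The response of this list differed between the lines for 13 of the 25 genes tested, lower in RPE-1 for 9, against 10.4% of all genes tested, and higher for 4, against 11.3%.

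Replication genes were measured with small errors. Their standard errors had a median of 0.14 in each line, whereas that of all listed genes was 0.27 in RPE-1 and 0.26 in HCT116. Base means of the 50 genes ranged from 148.9 for POLE2 to 6775 for MCM7. The p-values rest on the spread between libraries as the authors' fit estimated it. Because the base mean averages more than these 12 libraries, whether that spread is pooled over other groups was not tested. The libraries of a group were biological replicates in RPE-1 per the methods, while no source used here states it for HCT116. All 50 genes were found in GENCODE 44 on 20 chromosomes. Exon bases were shared with another gene on the same strand in 8 of them, none over 50%, and 7 had a processed pseudogene of their name among the listed genes.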

How the data were processed

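Sequencing libraries were grouped by the cell line and treatment in their labels. Per the submitters' processing notes, the authors used bcl2fastq 2.20.0.422, FastQC 0.11.9, Trimmomatic 0.39, cutadapt 3.3, SAMtools 1.12, featureCounts 2.0.1 and DESeq2 1.32.0 on hg38. The methods name some other versions, a correction of reads, removal of ribosomal reads and mapping with segemehl of which only unique matches were kept. The labels describe ribosomal RNA depletion, whereas the methods describe poly(A) selection, so which RNAs were captured is not settled.

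Only the authors' comparison of Nutlin-3a with DMSO in each line was used, since no values per library were analysed here. The deposited log2 values are the log2FC and its standard error. The deposited score is the log2FC divided by that error. The deposited p-values were taken as two-sided Wald p-values and were not recomputed. The score and the Benjamini-Hochberg adjustment of the p-values were recomputed and differed by less than rounding. The base mean, a normalized count averaged over libraries, is a signal that the authors deposited with each gene. It is identical in both tables, and 172 genes have a log2FC of 0 in both with base means of up to 234.0, so it averages more than these libraries and was used only as a filter.

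Intervals are 95% normal intervals. The difference between the lines was tested with a two-sided normal p and adjusted by Benjamini-Hochberg over genes with a base mean of at least 10. The difference test was also run on changes simulated from the deposited standard errors, so that this run cannot check the errors themselves. Members and lists were chosen with earlier results of these data known. All 50 members are named, with MDM2 and CDKN1A, and of the other factors the 3 lowest and 3 highest called in each line. Alternatives changed the adjusted p limit, the fold change limit, the zero point, the standard errors and the limit on base mean. Gene positions came from GENCODE 44 and promoter windows from RefSeq, whereas the authors used an Ensembl annotation of the same build. For a gene with several windows the outermost start was taken. Scripts ran in Python 3.11.15 and used scipy 1.17.1, matplotlib 3.10.9, pandas 2.3.3 and numpy 2.4.6.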

Additional observations from a re-analysis of the deposited data

Results flagged for a closer look

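Between the lines, the response to Nutlin-3a differed for 26 of the 50 replication genes by the test of the difference itself. Each difference of log2FC is given as RPE-1 minus HCT116. RPE-1 was lower for 19, against 10.4% of all genes tested, and higher for 7, against 11.3%. The count of 7 is thus near the share of all genes tested. Among genes called lower in both lines, RPE-1 was lower for MCM6 (−1.87), GMNN (−1.49), DBF4 (−1.26), CDC7 (−1.25), RFC3 (−1.03), POLD3 (−0.97), TIPIN (−0.94), GINS1 (−0.90) and POLA1 (−0.88). The same held, with smaller differences, for RPA2 (−0.84), MCM3 (−0.81), TIMELESS (−0.78), CDC6 (−0.76), RPA1 (−0.73), POLE3 (−0.59) and MCM4 (−0.49). HCT116 was lower for GINS2 (2.23), MCM2 (1.16), CDC45 (0.97), ORC6 (0.82), MCM5 (0.70) and RPA3 (0.51).

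In 4 genes the lines also differed in their calls. PCNA (−1.09) was called lower in RPE-1 and higher in HCT116. The latter call was lost under stricter limits, with wider standard errors and after the median of all genes was subtracted. ORC2 (−0.53) and ORC5 (−0.43) were called lower in RPE-1 alone, and POLE4 (0.94) was called lower in HCT116 alone. Line and tissue cannot be told apart here, because each tissue is represented by 1 line.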

How the results depend on the processing

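Under the alternatives, 747 of 800 recomputed log2FC and differences of members kept their direction and call, 50 lost the call, 3 gained it and 0 reversed. Only subtracting the median changes a log2FC, so the other settings could change a call but not a direction. The median difference over the genes tested was 0, so the differences kept their values under that setting too. The gains were POLE4 in RPE-1 (−0.17) and POLD2 in HCT116 (−0.51) with the median of all genes subtracted, and the difference of MCM10 (0.58) at base means of at least 50. Of 48 recomputed counts, 37 stayed within 1.5 times. Members called higher in HCT116 fell from 2 to 1 at an adjusted p under 0.01, at an absolute log2FC of at least 1 and after subtracting the median, and to 0 with standard errors multiplied by 1.5, where the same Wald test left 1, POLD4, at an unadjusted p under 0.05. Members whose change differed went from 26 (19 lower and 7 higher in RPE-1) to 8 (6 and 2) at a difference of at least 1 and to 16 (12 and 4) with the wider standard errors, and those higher in RPE-1 to 4 at an adjusted p under 0.01. Each of these settings is stricter by construction, apart from the subtracted median, which lowered every log2FC in HCT116 by 0.09.

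No paired analysis was possible because the tables list fitted changes without single libraries, which also kept libraries from being left out in turn and depth from being weighed. The difference test treats the errors of both lines as known and independent, and whether they share an estimate of the spread was not tested.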
